A study of Mus musculus with 4 samples.

Results

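The difference in the response to AEPS between 2 lines of RAW264.7 cells was measured from 4 single-colour Agilent mouse gene expression arrays, which are all the arrays of the study. RAW264.7 is a mouse macrophage cell line. AEPS is a polysaccharide prepared from the roots of Actinidia eriantha, and Linc-AAM is a long intergenic non-coding RNA that the submitters associate with activated macrophages. The groups, of 1 array each, were Linc-AAM knockdown cells under AEPS at 50 µg/mL for 4 h, Linc-AAM knockdown cells kept in DMEM for 4 h, Scramble cells under AEPS at the same dose and time, and Scramble cells in DMEM. The lines carried stably integrated knockdown or Scramble vectors that also encode a green fluorescent protein, and knockdown integrants were selected with blasticidin as bulk cultures, so the lines had been through vector selection and were not single clones.

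For each gene the difference in response was the AEPS-minus-DMEM value on the arrays labelled knockdown minus the same value on the arrays labelled scramble. It was computed on log2 processed signal relative to each array's 75th percentile, so that a level of 0 is as bright as that percentile and a negative level is dimmer. All 4 arrays had to measure a gene well above background, which 20339 of 36086 genes or transcript names did. With 4 arrays in 4 groups the design has 0 residual degrees of freedom, so no value below has a replicate check or a p-value, and differences are counted by size, with 1 on the log2 scale (2-fold) as the threshold. Repeated spots within an array give only an error of printing and scanning. Over 237 probes printed 10 times, its SD on the difference in response had a median of 0.087 and a maximum of 0.836.

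The labels of the lines are disputed by the deposited value table. Each of its columns ranked 55657 probes like the scanner file of the other line in the same medium (Spearman's rho rounded to 1) and less like the scanner file with its own label (rho = 0.969). The lines are therefore named here as "labelled knockdown" and "labelled scramble", after the scanner files. Under the labels of the value table every difference between the lines below turns its sign, whereas AEPS and DMEM stand the same in both sources. The targeted RNA could not settle this, because no gene name of the array design matched Linc-AAM.

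Polysaccharides and other microbial or plant products that macrophages sense through pattern recognition receptors set off transcription in stages. NF-kB and AP-1 factors turn on cytokine and chemokine genes early, and interferon beta made in the same hours then acts back on the cells through its receptor and transcription factors that bind interferon-stimulated response elements (ISRE) and turn on the interferon-stimulated genes. A gene can differ between lines in its fold response because its stimulated level differs, because its resting level differs, or through both.

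The response was smaller on the arrays labelled knockdown over most responding genes. Of 1659 genes whose mean response over the lines was at least 2-fold, 894 were higher and 765 lower under AEPS. Among the induced genes 735 (82.2%) responded less with the knockdown label, and among the repressed genes 667 (87.2%) did. Plotted against each other, the responses followed a line through 0 with a slope of 0.78, that is, the log2 response on the arrays labelled knockdown was on the whole 0.78 of that on the arrays labelled scramble. At least 2-fold induction was met by 821 genes (4.04%) on the arrays labelled knockdown and by 1084 (5.33%) on those labelled scramble. For at least 2-fold repression the counts were 627 (3.08%) and 1038 (5.1%). The brightness of the arrays also ran with the lines: the 75th percentile of processed signal was 448 and 439 on the arrays labelled knockdown (AEPS and DMEM), against 510 and 588 on the arrays labelled scramble, and its part in the smaller responses was not tested.

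**Figure D1:**
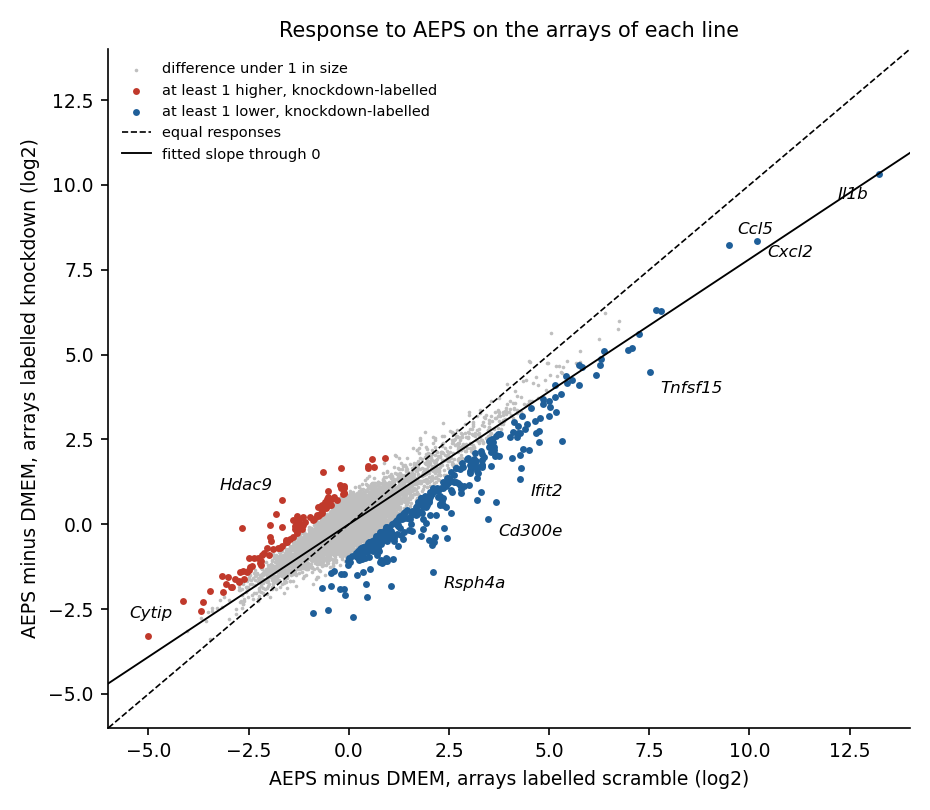
AEPS-minus-DMEM response of 20339 genes on the arrays labelled knockdown (y axis, log2) against the arrays labelled scramble (x axis, log2), 1 array per point and medium. Red points have a difference in response of at least 1 (107 genes) and blue points of -1 or less (331 genes), the dashed line marks equal responses and the solid line the fitted slope of 0.78. The blue points lie mostly to the right, among induced genes.

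The gap grew with the size of the response, and it lay mainly in the AEPS cultures. In the genes with a mean response of 1 to 2 the median difference in response was -0.30. It was -0.55 for mean responses of 2 to 3, -0.72 for 3 to 4 and -0.95 for 4 and over, the last over 64 genes. In these 4 classes the median line difference (labelled knockdown minus labelled scramble) under AEPS was -0.21, -0.43, -0.67 and -0.81, while in DMEM it stayed between -0.07 and 0.04. On the repressed side the medians were of the opposite sign, with a difference in response of 0.36 for mean responses of -2 to -1 and 0.69 for -3 to -2. Here both media contributed, since the genes at -3 to -2 had a median line difference of 0.42 under AEPS and of -0.18 in DMEM. Among 15624 genes with a mean response under 0.5 in size, 39 (0.25%) had a difference of at least 1 and 102 (0.65%) of -1 or less.

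**Figure D2:**
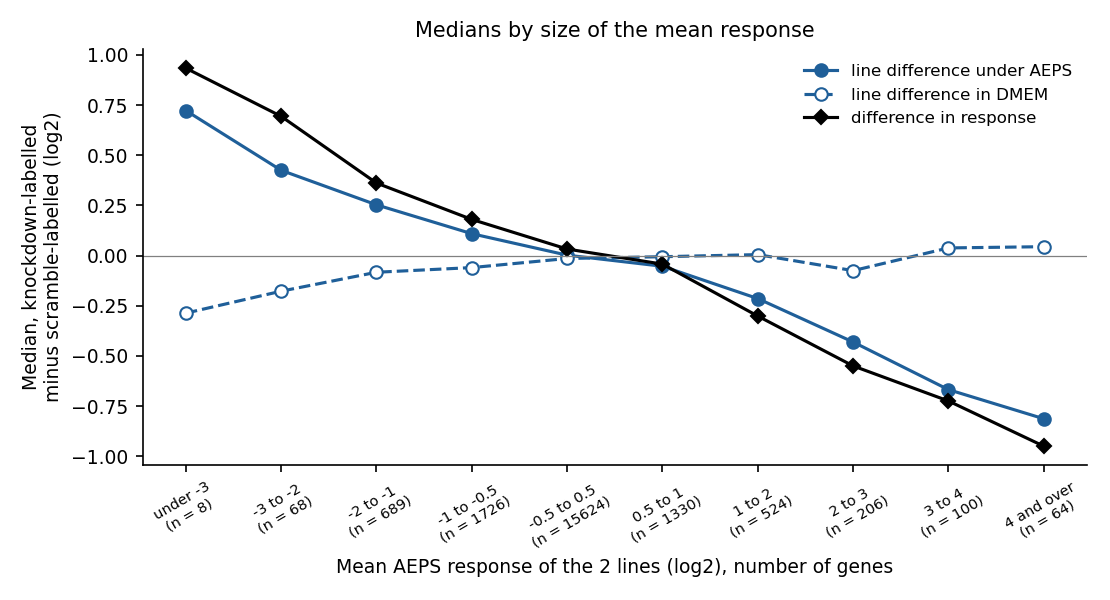
Median difference in response (black), line difference under AEPS (filled blue) and line difference in DMEM (open blue), all labelled knockdown minus labelled scramble on the log2 scale (y axis), by classes of the mean AEPS response of the lines (x axis, log2, number of genes under each class). The black and filled lines run downward together from repressed to induced genes, and the open line stays near 0 on the induced side; the lowest class holds 8 genes.

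Past the threshold of 1, the difference in response was higher on the arrays labelled knockdown for 107 genes (0.526% of those measured) and lower for 331 (1.63%). The median over all measured genes was 0.04, and the middle 90% of genes lay between -0.60 and 0.52. Just inside the threshold stood Ugt1a10 at -1.01 and Pwwp2b at 1.01, and just outside it Ier3 at -0.99 and Depdc7 at 0.99. With normexp background correction, which offsets dim signals, 26 genes were higher and 191 lower. That correction kept the sign of all 438 differences but only 25 of the 107 higher and 167 of the 331 lower ones stayed past the threshold.

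Each difference in response is the line difference under AEPS minus the line difference in DMEM, and the genes were grouped by which of these was at least 2-fold. Over all measured genes the line difference under AEPS was at least 2-fold higher on the array labelled knockdown for 278 genes (1.37%) and lower for 357 (1.76%). In DMEM it was higher for 295 (1.45%) and lower for 223 (1.1%). Of the 331 genes with a lower difference in response, 133 (40.2%) were 2-fold apart under AEPS only, 71 (21.5%) in DMEM only, 26 (7.86%) in both media with the same sign and 2 in both with opposite signs. The remaining 99 (29.9%) were 2-fold apart in neither medium and passed the threshold by smaller line differences of opposite sign. Of the 107 genes with a higher difference, 34 were 2-fold apart under AEPS only, 22 in DMEM only, 4 in both with the same sign, 1 in both with opposite signs and 46 in neither.

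**Figure D3:**
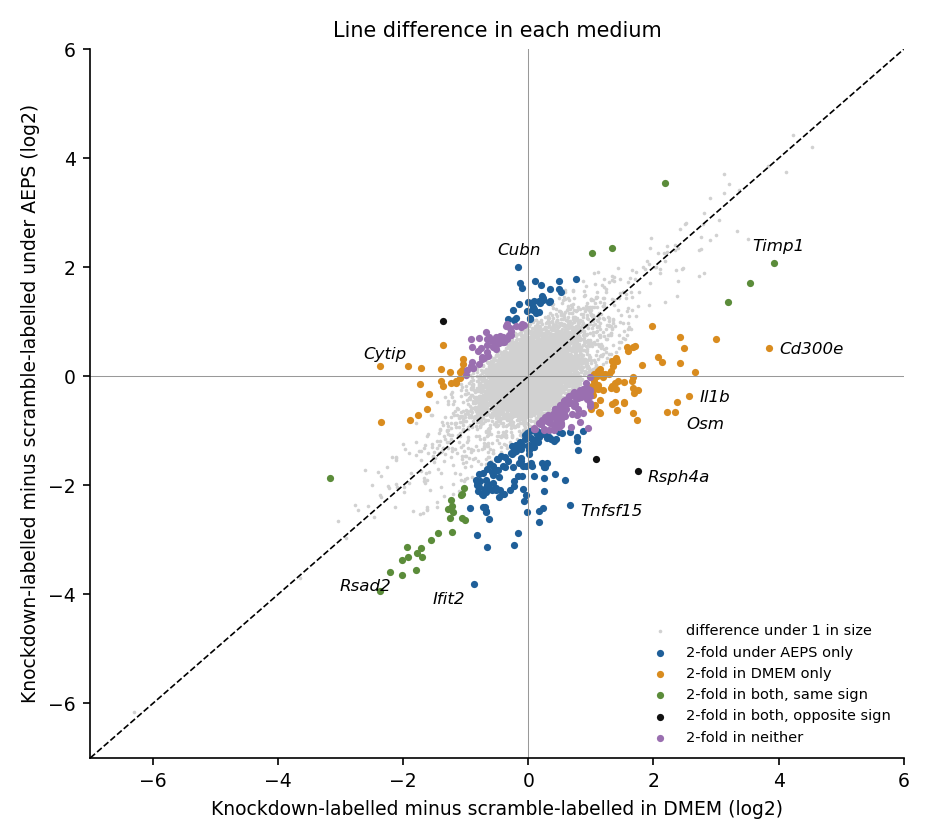
Line difference under AEPS (y axis) against line difference in DMEM (x axis), both labelled knockdown minus labelled scramble on the log2 scale, 1 point per gene. Coloured points have a difference in response of at least 1 in size, which is their vertical distance from the dashed line, and their colour says in which medium the lines were 2-fold apart; the blue group below 0 holds 133 genes and the orange group to the right of 0 holds 71.

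Among the genes that differed under AEPS only and had the lowest differences in response were Tnfsf15, a TNF family cytokine also called TL1A, Ifit2, an antiviral protein of the interferon response, the interferon-inducible GTPases Gbp5, Tgtp2 and Ifi47, and the tetraspanin Tspan33. Ifit2 stood at -1.56 under AEPS and -2.89 in DMEM on the arrays labelled knockdown, against 2.24 and -2.03 on the arrays labelled scramble. The DMEM levels lay within 2-fold of each other and the AEPS levels 3.80 apart on the log2 scale, lower with the knockdown label, giving a difference in response of -2.94. Gbp5 was at -2.05 and -4.52 on the knockdown-labelled arrays (AEPS, DMEM), against 0.63 and -4.68 on the scramble-labelled ones, so that its resting levels were 1.12-fold apart and its difference in response was -2.85. For Tnfsf15 the levels were 0.07 and -4.42, against 2.43 and -5.09, a 22.5-fold induction against a 184-fold one.

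Some genes of this kind were induced on the scramble-labelled arrays alone. Tgtp2 was lower under AEPS than in DMEM on the arrays labelled knockdown (-4.39 and -3.77) and higher on those labelled scramble (-1.52 and -3.60). Tap1, a subunit of the transporter that loads peptides onto MHC class I, stood at -3.34 and -2.88 with the knockdown label, against -0.86 and -2.86 with the scramble label. Tspan33 did likewise, at -3.47 and -2.95 against -1.06 and -3.18. These 3 genes are dim on the knockdown-labelled arrays, and with normexp their differences in response shrank to -1.47 for Tgtp2, -1.65 for Tap1 and -1.63 for Tspan33, against -2.70, -2.46 and -2.64 without it.

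Brighter genes of this class took several forms. Ifi47 was at -0.13 and -0.83 on the arrays labelled knockdown, against 3.02 and -0.17 on those labelled scramble. Irf1, a transcription factor induced by interferon and NF-kB, was at 2.34 and 1.78, against 4.43 and 2.08, and its difference in response of -1.79 was -1.77 with normexp. Cd40, a costimulatory receptor, was at 3.48 and -1.71, against 4.59 and -2.49. Fcgr1, the high-affinity IgG receptor, hardly moved with AEPS on the scramble-labelled arrays (0.93 under AEPS and 1.04 in DMEM) and was lower under AEPS on the knockdown-labelled ones (-1.55 and 0.37).

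The promoters of 3 of these genes are printed because they carry ISRE-type letters, whose share in each class is given after them. Each is the 250 bases before the RefSeq start in GRCm38.p6, 5′ to 3′ on the gene's strand, with capitals at the letters GAAA, any 2 bases and GAAA again, or their reverse complement (ISRE-type), and in Gbp5 also at GGGA, any base, TT, any base and CC, or their reverse complement (NF-kB-type). The window of Gbp5 is chr3:142496684-142496933 on the plus strand, that of Tgtp2 is chr11:49064213-49064462 on the minus strand, and that of the Gbp3 start that holds the match is chr3:142559794-142560043 on the plus strand.
Gbp5: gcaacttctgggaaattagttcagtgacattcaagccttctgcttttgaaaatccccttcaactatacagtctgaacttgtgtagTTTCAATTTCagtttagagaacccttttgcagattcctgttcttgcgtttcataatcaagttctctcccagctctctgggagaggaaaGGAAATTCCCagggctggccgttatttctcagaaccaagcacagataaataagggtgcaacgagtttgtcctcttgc
Tgtp2: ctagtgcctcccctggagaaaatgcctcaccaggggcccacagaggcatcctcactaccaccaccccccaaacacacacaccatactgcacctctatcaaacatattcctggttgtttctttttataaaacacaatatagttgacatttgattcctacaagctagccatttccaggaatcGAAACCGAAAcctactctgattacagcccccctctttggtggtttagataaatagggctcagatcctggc
Gbp3: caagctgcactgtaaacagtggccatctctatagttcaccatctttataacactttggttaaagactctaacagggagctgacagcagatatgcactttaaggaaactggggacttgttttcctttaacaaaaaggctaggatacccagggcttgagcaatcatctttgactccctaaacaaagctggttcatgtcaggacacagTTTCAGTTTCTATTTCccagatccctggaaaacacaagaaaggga

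The ISRE-type letters begin 165 bases before the start in Gbp5 and 70 bases before it in Tgtp2, and in Gbp3 2 matches that overlap begin 45 and 39 bases before the start. At least 1 promoter window was found for 10383 of the 20339 measured genes, and 329 of these (3.17%) held an ISRE-type match on either strand. Of the genes lower under AEPS only, 18 of 70 (25.7%) held one, and of those apart in both media with the same sign 5 of 15 (33.3%) did. Of the genes apart in DMEM only, 1 of 27 (3.70%) held one, and of those apart in neither medium 1 of 42 (2.38%). Genes induced at least 2-fold on average but not lower held one in 28 of 412 genes (6.80%). Over the single starts of the whole RefSeq table the share was 2.98% of 32851. NF-kB-type letters were found in 2 of the 70 genes of the AEPS-only class (2.86%) and in 1.35% of all measured genes. Induced genes that were not lower held them in 13 of 412 (3.16%). AP-1-type letters (TGANTCA) were found in 6 of 70 (8.57%), in 5.67% of all measured genes and in 38 of these 412 (9.22%). In the other lower classes their share was 14.8% (DMEM only), 20.0% (both media, same sign) and 14.3% (neither). The AEPS-only class thus held neither motif more often than induced genes that were not lower. These matches are letters in a window and do not show that a factor bound there; the windows of Ifit2, Tap1 and Ifi47 held none of the 3 motifs.

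Genes that differed in DMEM only included several of the best known products of activated macrophages, but these were a small part of the class. Of its 71 lower genes, 17 were induced at least 2-fold on the scramble-labelled arrays only and 14 with both labels. Another 21 moved under 2-fold with both labels, and 18 were at least 2-fold lower under AEPS on the knockdown-labelled arrays only. Il1b, which encodes interleukin-1 beta, reached nearly the same level under AEPS with both labels, 8.12 on the array labelled knockdown and 8.48 on that labelled scramble. In DMEM it stood at -2.20 on the knockdown-labelled array, against -4.76 on the scramble-labelled one, a 5.91-fold gap. Its difference in response of -2.92 thus came from the resting level, where the signal is dim, and it was -1.65 with normexp. Measured from the slope of 0.78 rather than from equal responses, Il1b departed by -0.03, and by 1.03 with normexp.

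Cd300e, an activating receptor of the CD300 family, had the lowest difference in response among the named genes of this class. It stood at 2.09 and 1.94 on the arrays labelled knockdown (AEPS, DMEM), against 1.56 and -1.91 on those labelled scramble. It was thus at its stimulated level already in DMEM on the knockdown-labelled array, and its difference in response of -3.32 was -2.96 with normexp. Osm, encoding the cytokine oncostatin M, was at -1.55 and -2.22, against -0.90 and -4.57, and Il10, which encodes an anti-inflammatory cytokine, at -1.22 and -3.63, against -0.55 and -5.30. Both of these shrank with normexp, Osm to -1.61 and Il10 to -1.23, against -3.0 and -2.34 without it.

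Cxcl2, which encodes a chemokine for neutrophils, and Ccl7, which encodes one for monocytes, followed at higher signals. Cxcl2 was at 6.46 and -1.89 on the knockdown-labelled arrays, against 7.14 and -3.04 on the scramble-labelled arrays, with a difference in response of -1.82 that was -1.54 with normexp. Ccl7 was at 2.83 and -1.86, against 3.35 and -2.93. Ccdc17, a coiled-coil gene, was at least 2-fold lower under AEPS on the arrays labelled knockdown only, as were 18 of the 71 genes of this class, itself included. Its AEPS levels were alike (-4.22 and -4.29), its DMEM levels were -2.08 with the knockdown label and -4.74 with the scramble label, and its difference of -2.59 shrank to -1.02 with normexp. The promoter window of Cxcl2, chr5:90903649-90903898 on the plus strand of GRCm38.p6, is printed because it holds NF-kB-type letters (capitals, beginning 97 bases before the start). It holds no ISRE-type ones. Cxcl2 does not stand for its class: of the 27 lower DMEM-only genes with a window, 1 (3.70%) held NF-kB-type letters, namely Cxcl2. ISRE-type letters were likewise held by 1 of 27 (3.70%). The windows of Il1b, Cd300e and Ccdc17 held none of the 3 motifs.
Cxcl2: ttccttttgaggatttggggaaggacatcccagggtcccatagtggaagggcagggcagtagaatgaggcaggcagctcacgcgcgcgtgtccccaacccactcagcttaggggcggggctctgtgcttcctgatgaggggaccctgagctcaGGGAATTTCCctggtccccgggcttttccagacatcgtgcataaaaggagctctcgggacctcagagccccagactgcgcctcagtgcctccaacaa

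**Figure D4:**
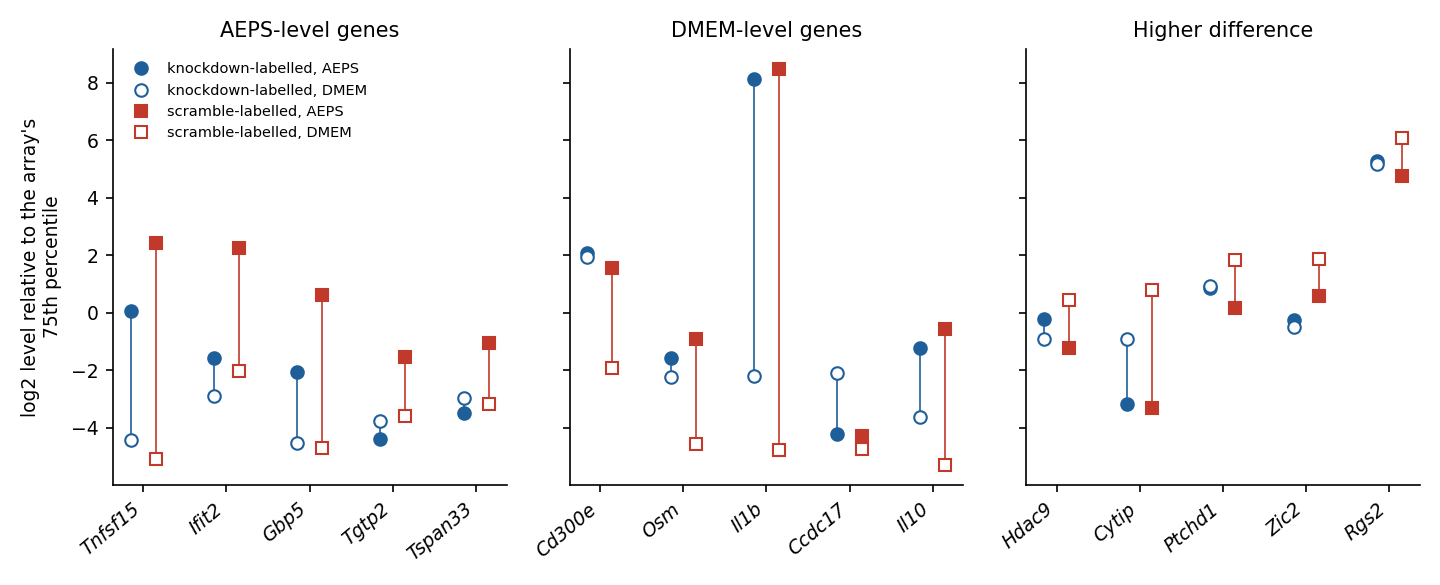
log2 level relative to the array's 75th percentile (y axis) of 5 genes apart under AEPS only (left), 5 genes apart in DMEM only (middle) and 5 genes with a higher difference in response (right). Blue circles are the arrays labelled knockdown and red squares those labelled scramble, filled under AEPS and open in DMEM, 1 array per symbol, and a line joins the media of a line. In the left panel the open symbols lie close together and the filled ones apart, and for Il1b in the middle panel the filled symbols stand at 8.12 and 8.48 while the open ones stand at -2.20 and -4.76.

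The dimness of a class bears on how well its size is known. The median over genes of the lowest processed intensity among the 4 arrays was 62.0 in the lower AEPS-only class and 24.1 in the lower DMEM-only class, against 475 over all measured genes. With normexp 124 genes fell into the lower AEPS-only class and 18 into the lower DMEM-only class. Of the 133 genes of the AEPS-only class 97 stayed past the threshold with normexp, and of the 71 of the DMEM-only class 22 did.

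In 23 of the 26 genes apart in both media with the same sign and with a lower difference in response, the level was lower on the knockdown-labelled array in both, and further so under AEPS. Rsad2, the antiviral enzyme viperin, stood at 1.13 and -4.48 on the arrays labelled knockdown, against 4.77 and -2.46 on those labelled scramble. Ifit3 was at 0.14 and -4.27, against 3.69 and -2.48, and Zbp1, a sensor of nucleic acids in cell death, at 1.07 and -2.07, against 3.71 and -1.06. For Rsad2 and Ifit3 the difference in response was larger with normexp, at -2.93 and -2.85, than the -1.62 and -1.77 without it. Isg20, an exonuclease induced by interferon, was at 1.26 and -1.32, against 4.11 and -0.09, and its other probe gave -1.38 where the brighter one gave -1.63.

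The other 3 genes of that group were higher on the knockdown-labelled array in both media, and further so in DMEM. Timp1, an inhibitor of matrix metalloproteinases, was at 4.67 and -0.45 on the arrays labelled knockdown, against 2.60 and -4.37 on those labelled scramble, and with normexp its difference in response of -1.85 fell under the threshold, to -0.42. Axl, a receptor tyrosine kinase that serves the uptake of apoptotic cells, was at 2.69 and 0.96, against 0.97 and -2.59. Slc6a4, the serotonin transporter, was at 1.86 and 0.49, against 0.50 and -2.69. The difference in response of Axl was -1.83 and that of Slc6a4 -1.83, and with normexp they were -1.09 and -1.26.

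Genes apart in neither medium passed by adding smaller line differences of opposite sign. Tnf, encoding the cytokine TNF, stood at 7.56 and 3.47 on the arrays labelled knockdown, against 8.40 and 2.65 on those labelled scramble, so that it was lower under AEPS by 0.84 and higher in DMEM by 0.82. Ptgs2, which encodes the inducible cyclooxygenase, was at 5.86 and 2.23, against 6.28 and 1.30. Ccl4, another chemokine gene, was at 8.50 and 3.40, against 9.20 and 2.83. These 3 genes are bright on all arrays, and their differences in response of -1.66, -1.35 and -1.27 were -1.64, -1.32 and -1.21 with normexp.

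Among gene lists the interferon-stimulated genes had the most members past the threshold on the lower side. Of 44 members measured on all 4 arrays 22 were lower and none higher, where 1.63% of all measured genes were lower. The median difference in response was -1.01, against 0.04 over all genes measured. Of the members 43 lay below 0, as did 8969 of all 20339 measured genes. Among the genes induced at least 2-fold on average, 82.2% responded less with the knockdown label. The list was already lower on the knockdown-labelled array in DMEM, where its median line difference was -0.82 and 18 members were at least 2-fold lower, and further lower under AEPS, with a median of -1.80 and 40 such members. Over all measured genes, 1.1% were at least 2-fold lower in DMEM and 1.76% under AEPS. Of the 22 genes, 13 were apart under AEPS only and 9 in both media. Daxx, which binds death receptors and chromatin, was apart under AEPS only and had line differences of -1.43 under AEPS and 0.01 in DMEM.

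Not all interferon-stimulated genes that differed between the lines differed in response. Isg15, a ubiquitin-like protein, was lower on the knockdown-labelled arrays by 1.34 under AEPS and by 1.17 in DMEM, which left a difference in response of -0.17. The RNA sensor Ifih1 (line differences of -1.86 and -1.66) and its regulator Dhx58 (-1.73 and -1.72) had differences in response of -0.20 and -0.01. Cxcl10, an interferon-inducible chemokine gene, was at 5.49 and 0.84, against 7.57 and 2.41, with a difference of -0.51. For Isg15, Ifih1 and Dhx58 the lines stood apart by about as much in DMEM as under AEPS. For Cxcl10 the line difference was -2.08 under AEPS and -1.57 in DMEM.

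The guanylate-binding and immunity-related GTPases, which attack the vacuoles of intracellular microbes, had 4 of 11 measured members past the threshold, all lower and all apart under AEPS only, where 1.63% of all measured genes were lower. These were Gbp5, Tgtp2, Gbp9 at -1.63 and Gbp3 at -1.39. The GTPase gene Ifi47, at -2.48, was not on this list and is not counted here. Igtp and Irgm2 did not pass, with line differences of -2.40 under AEPS and -1.62 in DMEM for Igtp and of -2.30 and -1.47 for Irgm2. The list's median line difference was -1.98 under AEPS and -0.46 in DMEM.

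Proinflammatory cytokines divided by level. All 12 measured members lay below 0, as did 8969 of all 20339 measured genes and most induced ones (82.2% responded less with the knockdown label). Their median was -1.12, and 6 passed, where 1.63% of all measured genes were lower. Tnfsf15 and Il15 were apart under AEPS only, Il1b and Osm in DMEM only, and Tnf and Lif in neither. Il15, a growth factor of lymphocytes, was at -2.0 and -4.02 on the arrays labelled knockdown, against -0.17 and -3.91 on those labelled scramble. The median line difference of the list was -0.70 under AEPS and 0.26 in DMEM, so its DMEM part ran opposite to that of the interferon-stimulated genes. Of 13 chemokines 4 passed, all lower (1.63% over all measured genes), with a median of -0.51. Ccl5, a chemokine for T cells, was the chemokine apart under AEPS only, at 7.63 and -0.61, against 8.80 and -0.69.

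**Figure D5:**
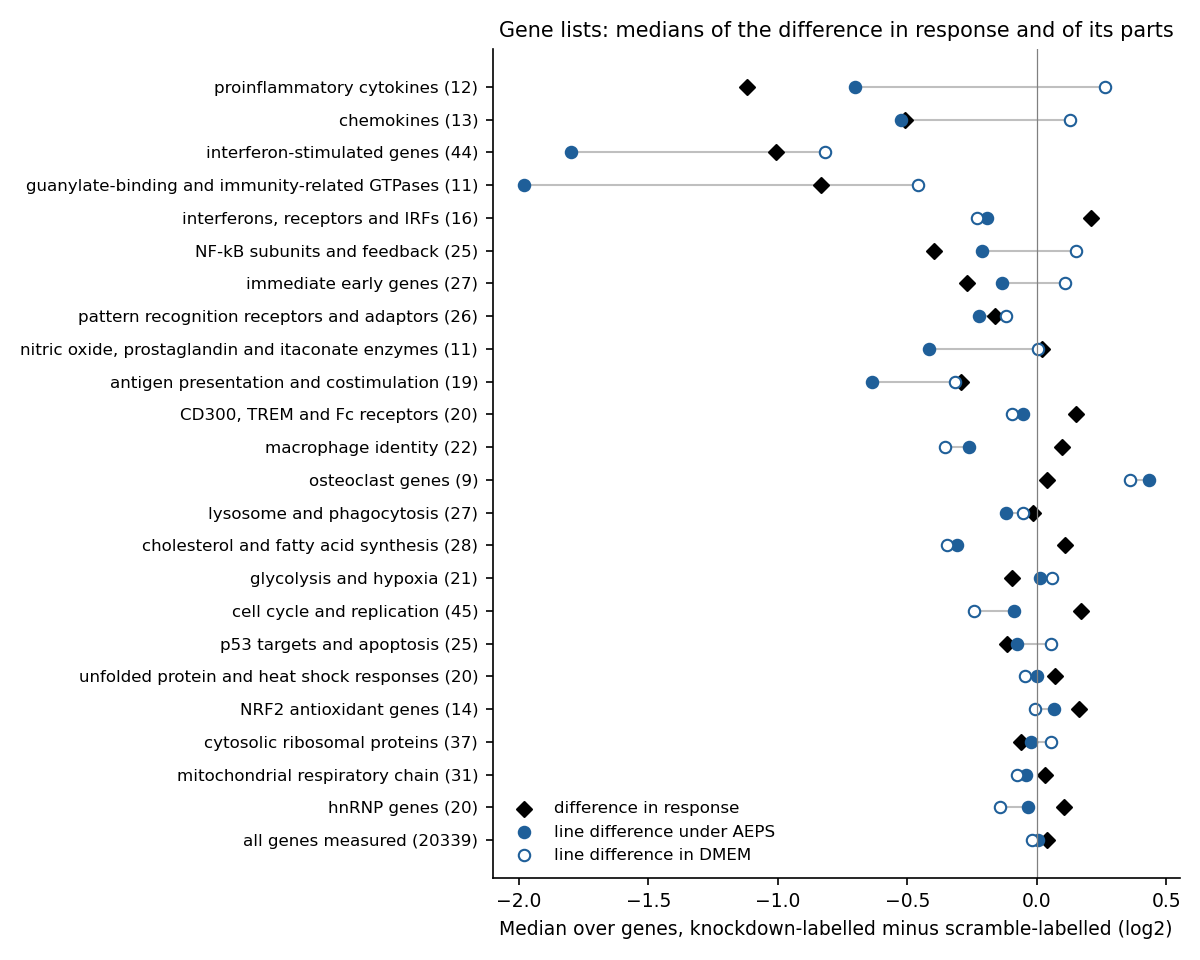
Median over the measured members of each gene list (number in brackets) of the difference in response (black diamonds), the line difference under AEPS (filled circles) and the line difference in DMEM (open circles), labelled knockdown minus labelled scramble on the log2 scale. Interferon-stimulated genes and the GTPases lie to the left in both media, whereas for cytokines the filled circle (-0.70) and the open circle (0.26) lie on either side of 0.

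Set against the slope of 0.78 instead of equal responses, these lists parted. The median departure was -0.30 for the interferon-stimulated genes, -0.22 for cytokines and -0.16 for the GTPases, but 0.45 for chemokines and 0.14 for the NF-kB subunits and feedback genes, against 0.04 over all measured genes. With normexp and its own slope of 0.76, an alternative added after the data were seen, these medians were -0.37, -0.20, -0.24, 0.46 and 0.10, against 0.01 over all measured genes. Ifit2 departed by -2.0, Fcgr1 by -1.83 and Irf1 by -1.28, which became -2.14, -1.50 and -1.22 with normexp. The departures of Tnfaip2 and Cxcl2 were -0.23 and 0.40, and -0.16 and 0.66 with normexp. That of Rsad2 was -0.04 but became -1.38 with normexp, so its distance from Ifit2 depends on how dim signals are treated. Tnfrsf1b, the second TNF receptor, departed by 1.70: it was at 2.75 and -2.89 on the arrays labelled knockdown, against 4.41 and -0.62 on those labelled scramble, lower in both media with the knockdown label. Its difference in response of 0.60 turned to -0.24 with normexp, and its departure was then 0.91. Nos2, the inducible nitric oxide synthase, departed by 1.24 and stood at 2.69 and -0.04, against 1.52 and -0.38.

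Other lists of the activation programme held 2 or 3 such genes each, where 1.63% of all measured genes were lower. The NF-kB list had 3 of 25 members lower and a median of -0.40, and these were Tnfaip2, the ribonuclease gene Zc3h12a and the cytokine signalling inhibitor Socs1. Antigen presentation and costimulation had 3 of 19 lower, namely Tap1, Cd40 and Nlrc5, the transactivator of MHC class I, whose other probe gave -0.55 where the brighter gave -1.25. Of 20 CD300, TREM and Fc receptors 3 were lower, Cd300e, Fcgr1 and Fcgr4. Of 11 enzymes that make nitric oxide, prostaglandins or itaconate 2 were lower, Ptgs2 and Ass1, the enzyme that regenerates arginine, at 1.04 and -0.70 against 3.13 and -0.18. Of 16 interferon, receptor and IRF genes 2 were lower, Irf1 and Irf4, and the median of that list was 0.21.

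Among 26 pattern recognition receptors and adaptors 1 was higher, where 0.526% of all measured genes were, and none lower. This was Tlr4, the receptor for lipopolysaccharide, at 0.73 and 1.88 on the arrays labelled knockdown, against -0.03 and 2.19 on those labelled scramble. Its repression by AEPS was the smaller one on the arrays labelled knockdown, with a difference in response of 1.07. No member passed in the lists of immediate early genes, macrophage identity, osteoclast genes, cholesterol and fatty acid synthesis, glycolysis and hypoxia, cell cycle and replication, p53 targets and apoptosis, NRF2 antioxidant genes, cytosolic ribosomal proteins, the mitochondrial respiratory chain or hnRNP genes, nor in the 3 lists of genes of other cell types. These lists held from 2 to 45 measured genes each, where 1.63% of all measured genes were lower and 0.526% higher. Hnrnpl, whose protein binds RNA, had a difference of 0.09. The lysosome list had 1 lower member of 27 measured, Axl. The unfolded protein and heat shock list had 1 of 20, Hspa1a, which fell under the threshold with normexp. Both counts stand beside the 1.63% of all measured genes that were lower. In all, 532 of the 20339 measured genes were on a list. Of these 532, 51 were lower and 1 was higher, where 1.63% of all measured genes were lower (331) and 0.526% higher (107). The lists had been chosen with earlier results of these data known.

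Genes with a higher difference in response were mostly repressed by AEPS, and less so on the arrays labelled knockdown. Of the 107 genes, 38 were at least 2-fold lower under AEPS on the scramble-labelled arrays only and 25 on both, whereas 11 were induced on the knockdown-labelled arrays only. The remaining 33 (30.8%) moved under 2-fold with both labels. Cytip, a cytohesin-binding scaffold protein of blood cells, was at -3.16 and -0.90 on the arrays labelled knockdown, against -3.32 and 0.81 on those labelled scramble. Its levels met under AEPS and were apart in DMEM, the reverse in sign of Il1b. Gpr183, an oxysterol receptor that guides immune cells, was at 1.12 and 2.49, against 0.10 and 2.73, and was thus apart under AEPS.

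Hdac9, a class IIa histone deacetylase, moved in opposite directions in the lines. It was at -0.22 and -0.92 on the arrays labelled knockdown, against -1.22 and 0.45 on those labelled scramble, with a difference in response of 2.37 that was 2.02 with normexp. Rgs2, a regulator of G protein signalling and the brightest of the leading higher genes, was at 5.28 and 5.17, against 4.75 and 6.07, and its probes gave 1.43 and 1.56. Ptchd1, a membrane protein related to Patched, was at 0.86 and 0.94, against 0.18 and 1.85, and Angptl4, a secreted inhibitor of lipoprotein lipase, at 1.93 and 1.97, against 0.97 and 2.31. All 3 of the last-named genes hardly moved with AEPS on the knockdown-labelled arrays and were lower under AEPS on the scramble-labelled ones.

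Smtn and Zfp469 were higher under AEPS on the arrays labelled knockdown. Smtn, encoding the actin-binding protein smoothelin, was at 0.87 and -1.05, against 0.18 and -0.39, and Zfp469, a zinc finger gene, at 1.13 and -0.01, against 0.06 and 0.19. The other genes that stood out at dim signals were less certain in size. Cubn, encoding the endocytic receptor cubilin, had a difference of 2.17 that was 0.93 with normexp, and Trim47 one of 1.64 that was 0.80. For the homeobox gene Hoxb3 the brighter probe gave 1.93 and the other -0.01, and for Ppfia4 the probes gave 1.31 and -0.06. Of 60 genes past the threshold with several measured probes, 50 had the same sign with every probe and 30 were past the threshold with every probe.

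For 246 genes both AEPS arrays and neither DMEM array were well above background, so only the line difference under AEPS was measured. It was at least 2-fold higher on the array labelled knockdown for 11 of them (4.47%) and lower for 43 (17.5%), with a median of -0.05. With normexp the counts were 5 and 25. Mx1, an antiviral GTPase induced by interferon, stood at -4.24 on the array labelled knockdown, against 0.68 on that labelled scramble. Ifi209, another interferon-inducible gene, was at -3.97, against 0.38, and Gbp7 at -2.20, against -0.12. Ifnb1, which encodes interferon beta and was picked out after its values were seen, was at 0.17, against 2.60. All 4 genes were thus lower on the knockdown-labelled array under AEPS, and in DMEM neither array measured them. Mx1 and Ifi209 are dim on the knockdown-labelled array, so the sizes of their gaps are less certain.

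Other genes measured only under AEPS included Marcks, a substrate of protein kinase C that binds actin, at -2.37 on the array labelled knockdown, against 2.06 on that labelled scramble. Penk, which encodes proenkephalin, was at -3.91, against -1.33, and Cd69, an early activation antigen, at -3.19, against -0.69. Both are dim on the knockdown-labelled array. Il6, a cytokine of the acute phase response, was at 0.13, against 1.84. Il1a, which encodes interleukin-1 alpha, was at 4.46, against 4.85, and so close between the labels under AEPS, as Il1b was.

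A smaller number was higher on the knockdown-labelled array. The eosinophil chemokine gene Ccl24 was at 0.71 on the array labelled knockdown, against -1.78 on that labelled scramble. Cxcl3, which like Cxcl2 encodes a neutrophil chemokine, was at 0.35, against -0.91, and Il23a, the specific subunit of interleukin-23, at -3.27, against -4.37. The collagenase gene Mmp13 was at -1.55, against -3.15. Il23a and Mmp13 are dim on the scramble-labelled array, so the sizes of their gaps are less certain.

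By detection of macrophage markers the cells were alike on the 4 arrays. All 9 macrophage markers were well above background on every array, and apart from Fcgr1 none of them had a difference in response past the threshold. The summed linear signal of the 9 markers, relative to the 75th percentile, was 763 and 715 on the arrays labelled knockdown (AEPS, DMEM), against 814 and 731 on those labelled scramble. Csf1r was the brightest marker on every array, at log2 levels of 8.49 and 8.92, against 8.36 and 8.81. The sum therefore says little of dimmer markers such as Fcgr1, or Lyz2 at 6.1 and 6.3, against 7.0 and 7.1. None of 6 fibroblast and epithelial markers was measured on all 4 arrays, and 2 of 5 lymphocyte markers and 2 of 4 neutrophil and mast cell markers were, with summed signals of 1.66 to 2.28 and of 2.18 to 3.03. In cultures a lower level can reflect fewer responding cells or less RNA per cell, which these arrays cannot tell apart.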

How the data were processed

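Total RNA of 4 RAW264.7 cultures was labelled with cyanine 3, per the labels' protocols, and each array was read with Agilent Feature Extraction 10.7.1.1, per the file headers. The deposited scanner files hold the processed signal as an intensity, background-subtracted by that program, together with a flag for spots well above background. Of 62976 spots on an array, 59305 were no control spots; 53.4% to 58.0% of these were well above background, none was saturated, and the 164 to 231 outlier spots per array were left out. All arrays share 1 slide and 1 scan. The deposited value table holds log2 values of the same arrays, with its centring unstated. The 4 arrays limit the precision, since each group has 1.

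Spots of a probe were averaged, log2 of the processed intensity was taken minus the array's 75th percentile, and a gene took its brightest probe. Probes were named through RefSeq's table (assembly GRCm38.p6): 26582 by accession, 2602 by symbol and 492 by synonym, and 26005 kept the name of the array design. Probe coordinates of the files are of mm9 and were not used. Promoter sequences are RefSeq's. The first principal axis through 0 over the 1659 responding genes gave the slope. Alternatives were normexp background correction (limma 3.58.1 in R 4.3.3, offset 50), quantile normalization, centring on the median, genes well above background on at least 2 arrays, the median of probes, a 1.5-fold threshold and the value table. The code was tested on simulated data. Python 3.11.15, numpy 2.4.6 and pandas 2.3.3 were used.

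The comparison, the 26 gene lists and the motifs were chosen with earlier results of these data known. Genes were named by rules of size: the 12 largest differences each way that also passed with normexp and quantile normalization, the 5 largest each way in each class, up to 5 per list, the 6 largest departures from the slope each way, and the 5 largest line differences each way among genes measured on the AEPS arrays only, plus 8 genes whatever their values (Il1b, Tnf, Il6, Ccl5, Cxcl10, Nos2, Tlr4 and Hnrnpl). Further members of the lists (Isg15, Ifih1, Dhx58, Daxx, Lif, Igtp, Irgm2, Gbp7, Ifnb1, Il1a, Il23a and Cxcl3) were named after their values were seen.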

Additional observations from a re-analysis of the deposited data

Results flagged for a closer look

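Rsph4a, a gene of the radial spokes of cilia, moved at least 2-fold in opposite directions in the lines. It stood at -4.67 under AEPS and -3.28 in DMEM on the arrays labelled knockdown, against -2.93 under AEPS and -5.02 in DMEM on those labelled scramble. The response was -1.39 with the knockdown label and 2.10 with the scramble label, and the difference of -3.49 was the lowest of all genes with an official-style symbol. With 1 array per group this difference was not tested. All 4 signals are dim, and with normexp background correction the difference was -1.25.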

How the results depend on the processing

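No paired analysis was possible because the groups share only replicate number 1, with 1 array each. The counts of 107 higher and 331 lower differences in response became 26 and 191 with normexp background correction, 304 and 611 when genes well above background on at least 2 arrays were admitted, and 735 and 1064 at a 1.5-fold threshold. With the value table as labelled they were 300 and 112, the reverse of the 112 and 300 obtained when its columns were matched to the scanner files; quantile normalization gave 112 and 300, median centring 101 and 344, and the median of probes 102 and 332. With normexp the lower classes held 18 genes apart in DMEM only, 8 in both media with the same sign, 0 with opposite signs and 41 in neither, and the higher classes held 5 under AEPS only, 4 in DMEM only, 1 in both with the same sign, 0 with opposite signs and 16 in neither; 124 lower genes were apart under AEPS only, against 133. Quantile normalization left 2 higher genes apart in both media with the same sign, and median centring left 0 with opposite signs. The share of responding genes that responded less with the knockdown label was 84.5%, and it was 88.9% with normexp, 83.4% with quantile normalization, 84.6% with median centring and 91.3% among 446 genes with a mean response of at least 4-fold. The slope ranged from 0.76 to 0.79. Among genes measured on the AEPS arrays only, normexp gave 5 higher and 25 lower, against 11 and 43. Of 69 named genes past the threshold, all 69 kept their sign with normexp, quantile normalization, median centring and the matched value table, and 52, 68, 69 and 68 stayed past it. Over the alternatives, 99 list medians moved by less than 0.0869, the median spot SD of the difference, and 5 moved further. With normexp and a refitted slope, chosen after seeing the data, 104 departures from the slope moved by less than that SD and 84 moved further. Signal over background limits the sizes of differences in dim genes.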
